A study of Mus musculus with 6 samples.

Results

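The diacylglycerol kinase (DGK) genes of the mouse epididymis were the subject of this comparison. They were chosen by gene symbol as the 10 known members of the family, Dgka, Dgkb, Dgkd, Dgke, Dgkg, Dgkh, Dgki, Dgkk, Dgkq and Dgkz, among the 57127 genes of the count table. Whole epididymides of adult C57BL/6 mice were compared, 3 RNA-seq libraries from wild type animals (WT) and 3 from Ocln-/- animals (Ocln-KO), homozygous knockouts of the tight junction protein occludin that were bred from heterozygous parents. The methods speak of 3 pairs of mice and also of pooled RNA, and n here counts libraries. The labels give no treatment for either genotype. The question was how the transcripts of the enzymes that remove diacylglycerol differ between the genotypes.

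DGKs phosphorylate diacylglycerol to phosphatidic acid. Diacylglycerol is released from membrane phosphoinositides by phospholipase C and recruits protein kinase C, protein kinase D and RasGRP proteins through their C1 domains, so a DGK ends a diacylglycerol signal while it makes another lipid messenger and the first intermediate of phosphatidylinositol resynthesis. Mammalian DGKs share C1 domains and a catalytic domain and are sorted into types by their other domains. Type I enzymes (Dgka, Dgkb, Dgkg) carry calcium-binding EF hands. Type II enzymes (Dgkd, Dgkh, Dgkk) carry a pleckstrin homology domain and a split catalytic domain. Type III (Dgke) has no added regulatory domain and prefers diacylglycerol with arachidonate, type IV enzymes (Dgki, Dgkz) carry ankyrin repeats, and type V (Dgkq) has an extra C1 domain.

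The stretches just upstream of the annotated starts of Dgkh, Dgkk and Dgkg are shown, because Dgkh and Dgkk passed the test between the genotypes and Dgkg had the largest difference among the other members. The sequences are those of RefSeq for GRCm38.p6, read 5′ to 3′ on the strand of the gene and ending at the base before the first annotated start. Capitals mark the GC box, which reads GGGCGG, or its reverse complement where the box lies on the other strand.
Dgkh, chr14:78732777-78732979, minus strand: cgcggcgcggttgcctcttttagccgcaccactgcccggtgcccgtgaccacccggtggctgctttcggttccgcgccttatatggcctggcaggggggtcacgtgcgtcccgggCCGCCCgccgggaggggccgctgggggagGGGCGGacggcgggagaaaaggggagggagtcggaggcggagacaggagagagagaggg
Dgkk, chrX:6779056-6779305, plus strand: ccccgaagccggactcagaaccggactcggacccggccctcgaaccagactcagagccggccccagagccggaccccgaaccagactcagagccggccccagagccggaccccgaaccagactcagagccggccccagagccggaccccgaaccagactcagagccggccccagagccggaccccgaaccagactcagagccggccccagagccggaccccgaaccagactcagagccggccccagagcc
Dgkg, chr16:22657232-22657481, minus strand: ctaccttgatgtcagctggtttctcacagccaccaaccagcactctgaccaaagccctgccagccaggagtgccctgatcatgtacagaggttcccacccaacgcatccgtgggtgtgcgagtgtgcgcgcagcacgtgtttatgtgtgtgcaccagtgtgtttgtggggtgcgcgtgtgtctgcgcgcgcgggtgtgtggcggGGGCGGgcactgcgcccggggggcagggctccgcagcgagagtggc
Both strands were searched for the CAAT box (written CCAAT), the TATA box (written TATAAA), the GC box and a half-site of the androgen receptor (written AGAACA), and no match overlapped another. The Dgkh stretch of 203 bases held 2 GC boxes, 88 and 59 bases before the start, and the Dgkg stretch of 250 bases held 1, 46 bases before it. None of the 4 motifs occurred in the 250 bases of Dgkk, but whether its annotated start is the true one is not known here, and the stretch may lie within the gene. Among 32851 RefSeq windows of 250 bases, 32.7% held the GC box, 33.8% the CAAT box, 12.4% the TATA box and 16.1% the androgen receptor half-site. All 3 stretches were rich in G and C, at 72.9% for Dgkh, 72.0% for Dgkk and 64.8% for Dgkg. The Dgkk stretch was mostly a tandem repeat of a 36-base unit, which ran for 210 bases, or 5.83 copies, from base 41 of the window. Where transcription of these genes begins in the epididymis was not measured.

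The libraries held between 30646424 and 38870780 counts, and 19691 genes were abundant enough to be tested, all 10 DGK genes among them. Values are given as CPM, the usual count scaled to library size, here after TMM scaling in edgeR, so that a single count is worth 0.0267 to 0.0314 CPM. Genotypes were tested with the quasi-likelihood F test of edgeR, and each false discovery rate (FDR) below is the p-value adjusted by Benjamini and Hochberg's method over all tested genes. Ocln had 85.8, 78.7 and 91.7 CPM in the WT libraries and 15.1, 15.3 and 14.9 CPM in the Ocln-KO libraries, which is -2.50 on the log2 scale (SE 0.09, edgeR FDR 0.000108), so the libraries followed their labels. Ocln-KO replicate 3 stood apart: on the first principal component, with 51.8% of the variance, the Ocln-KO libraries lay at 15.7, 25.2 and 62.4 and the WT libraries between -42.7 and -27.5. Although an extraction protocol names prefrontal cortex, 8 epididymal principal cell genes summed to 19203 to 33146 CPM per library, whereas 8 neuronal genes summed to 18.4 to 25.1 CPM. Nearly all of the neuronal sum was Syt1 (9.04 to 12.1 CPM) and Rbfox3 (5.48 to 10.5 CPM), while Neurod6 was at 0 and Snap25 and Gad2 were at no more than 0.0627 CPM. The principal cell sum was nearly all Crisp1, Adam7, Lcn5 and Rnase9. Cftr was at 1.15 to 2.76 CPM, Lcn8 at 0.780 to 2.30 CPM and Lcn9 at no more than 0.107 CPM. In bulk tissue, fewer cells of a type and less RNA per cell cannot be told apart.

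Among the 10 DGK genes, Dgkh was the only one to rise and Dgkk the only one to fall at an FDR under 0.05. Dgkh was 1.65-fold higher and Dgkk 5.21-fold lower in Ocln-KO. Over all tested genes 3.91% were called higher and 5.04% lower, 8.95% in all. Of all those calls 43.7% were higher in Ocln-KO, or 63.5% when libraries were scaled by total counts only. Only Dgkk also passed the fold change threshold of 2, as did 3.19% of all tested genes. An unadjusted p under 0.05 was found for 5 of 10 members and for 29.1% of all tested genes. For 2 members all Ocln-KO libraries were higher than all WT libraries, and for 4 members all were lower, against 16.9% and 19.4% of all tested genes. The median log2 fold change of the family was 0.07, and that of all tested genes 0.01. The family therefore showed no common direction, with 6 positive and 4 negative values.

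**Figure D1:**
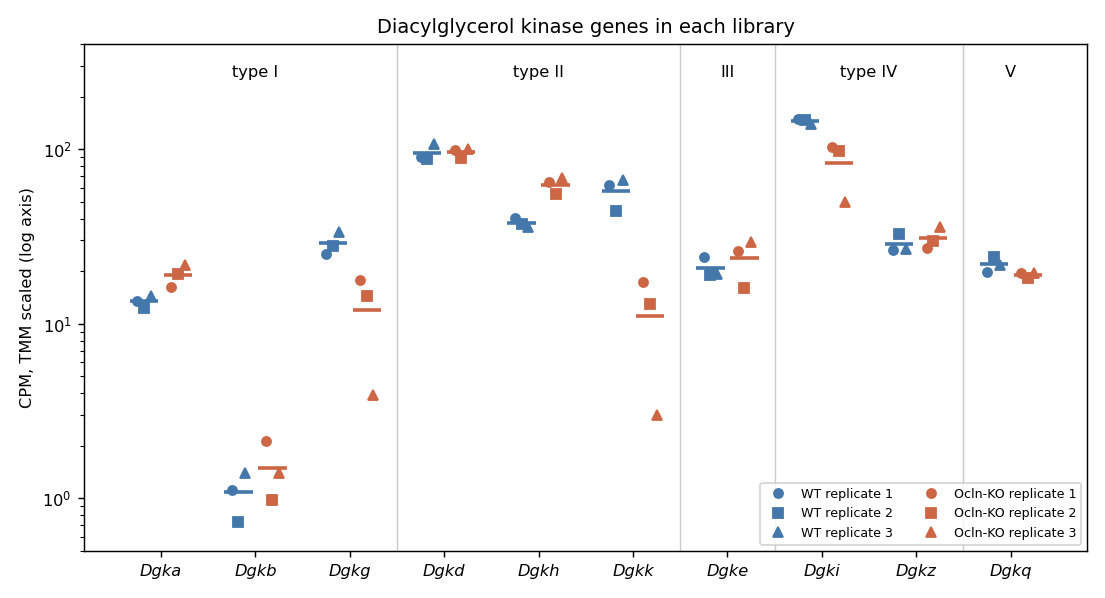
TMM-scaled CPM (log axis) of the 10 DGK genes by type, with 1 symbol for each library (blue, WT; orange, Ocln-KO; shapes mark replicates 1 to 3) and a bar at each mean of 3. Dgkk lay between 44.2 and 66.6 CPM in WT and between 2.99 and 17.3 CPM in Ocln-KO, while Dgkh lay between 35.9 and 40.4 and between 55.1 and 68.1 CPM, and Ocln-KO replicate 3 was the lowest library for Dgkg, Dgkk and Dgki.

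Dgkk, on the X chromosome from 6779306 to 6948363 (GRCm38, plus strand), encodes the type II enzyme DGK kappa, which lacks the SAM domain of the other type II enzymes. It had 62.5, 44.2 and 66.6 CPM in the WT libraries and 17.3, 13.0 and 2.99 CPM in the Ocln-KO libraries. All WT libraries were above all Ocln-KO libraries, and Ocln-KO replicate 3 was far below the other two. The mean fell from 57.8 ± 12.0 to 11.1 ± 7.36 CPM (SD, n = 3 each). The log2 fold change was -2.38 (SE 0.52, 95% interval -3.59 to -1.17, edgeR FDR 0.0362). Without Ocln-KO replicate 3 it was -1.93, with an edgeR FDR of 0.00217. The call was lost without WT replicate 1, 2 or 3 (edgeR FDR 0.125, 0.0770 and 0.126) and without Ocln-KO replicate 2 (0.0852), while the log2 fold change stayed between -2.54 and -2.27 in those fits. With the replicate number fitted as a block the call was lost too (edgeR FDR 0.0953), at a log2 fold change of -2.60. Over all 13 alternatives the FDR ran from 0.00217 to 0.126.

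Dgkh, on chromosome 14 from 78558750 to 78732776 (minus strand), encodes DGK eta, a type II enzyme with a SAM domain. Its values were 40.4, 37.2 and 35.9 CPM in the WT libraries and 64.6, 55.1 and 68.1 CPM in the Ocln-KO libraries. The groups did not overlap, and Ocln-KO replicate 3 lay close to replicate 1. The mean rose from 37.8 ± 2.31 to 62.6 ± 6.71 CPM (SD, n = 3 each). This is 0.73 on the log2 scale (SE 0.11, 95% interval 0.48 to 0.97, edgeR FDR 0.0149). Without WT replicate 1, 2 or 3 the edgeR FDR was 0.0778, 0.0600 and 0.0750, with log2 fold changes between 0.69 and 0.78. With the replicate number fitted as a block the edgeR FDR was 0.0711, at a log2 fold change of 0.72. The FDR ran from 3.19e-06 to 0.0778 over all 13 alternatives. Of its 16975 exonic bases, 819 are shared with Gm48998, a transcript of the same strand.

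Dgkd, on chromosome 1 from 87853287 to 87945180 (plus strand), encodes DGK delta, the type II enzyme with the same domains as DGK eta. It had 89.6, 88.2 and 106 CPM in the WT libraries and 98.7, 88.4 and 99.9 CPM in the Ocln-KO libraries. The groups overlapped closely, and the log2 fold change was 0.01 with a 95% interval of -0.23 to 0.25 (edgeR FDR 0.946). The type II genes thus held the member that rose, the member that fell, and the member with the difference closest to 0.

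The type I gene Dgkg, on chromosome 16 from 22468461 to 22657221 (minus strand), encodes DGK gamma. It had 25.2, 27.8 and 33.6 CPM in the WT libraries and 17.8, 14.4 and 3.90 CPM in the Ocln-KO libraries. The WT libraries were all higher than the Ocln-KO libraries, but the Ocln-KO libraries spread widely. The log2 fold change was -1.26 (SE 0.46, 95% interval -2.32 to -0.21, edgeR FDR 0.116) and did not pass the threshold. Without Ocln-KO replicate 3 it was -0.85, with an edgeR FDR of 0.0209, the only one of 13 alternatives under 0.05, over which the FDR ran up to 0.285.

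Dgka, on chromosome 10 from 128720134 to 128744855 (minus strand), encodes DGK alpha, which is known for restraining diacylglycerol signals in T cells. It had 13.6, 12.3 and 14.4 CPM in the WT libraries and 16.1, 19.3 and 21.6 CPM in the Ocln-KO libraries. The groups did not overlap. The log2 fold change of 0.50 (SE 0.15, 95% interval 0.17 to 0.84) had an edgeR FDR of 0.0693. It passed in 3 of 13 alternatives: DESeq2 (0.0284), total counts (0.0441) and the edgeR fit without Ocln-KO replicate 1 (0.0445), and the FDR ran up to 0.180 over the others.

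Dgkb, on chromosome 12 from 37817726 to 38634239 (plus strand), encodes DGK beta, an enzyme best known from neurons. It was the scarcest member, with 42, 25 and 52 counts in WT and 68, 31 and 47 counts in Ocln-KO. These correspond to 1.08 ± 0.335 and 1.49 ± 0.580 CPM (SD, n = 3 each). The groups overlapped, and the 95% interval of the log2 fold change, -0.51 to 1.43, was the widest among members with a positive value, so no difference was detectable. The intervals of Dgkk and Dgkg, which had more counts, were wider still.

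The type IV gene Dgki, on chromosome 6 from 36846022 to 37300184 (minus strand), encodes DGK iota. It had 147.8, 146.3 and 140.0 CPM in the WT libraries and 102.4, 98.0 and 50.0 CPM in the Ocln-KO libraries. The WT libraries were nearly alike, all Ocln-KO libraries lay below them, and Ocln-KO replicate 3 was again the lowest. The log2 fold change was -0.79 (SE 0.24, 95% interval -1.35 to -0.24, edgeR FDR 0.0775). It passed with DESeq2 (FDR 0.00935), with no filter on low counts (0.0308 in edgeR) and without Ocln-KO replicate 3, where the log2 fold change was -0.53 (0.0125 in edgeR), and the FDR ran up to 0.195 over the other alternatives.

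Dgkz, on chromosome 2 from 91932824 to 91975864 (minus strand), encodes DGK zeta, the other type IV enzyme, which together with DGK alpha acts in T cells. It had 26.4, 32.5 and 26.9 CPM in the WT libraries and 27.3, 29.9 and 36.0 CPM in the Ocln-KO libraries. The groups overlapped, and the log2 fold change of 0.12 had a 95% interval of -0.20 to 0.43 (edgeR FDR 0.607).

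Dgke, on chromosome 11 from 89035179 to 89066850 (minus strand), encodes DGK epsilon, which acts in the phosphatidylinositol cycle. It had 24.3, 18.9 and 19.2 CPM in the WT libraries and 25.9, 16.0 and 29.6 CPM in the Ocln-KO libraries. The groups overlapped, with both the lowest and the highest value in Ocln-KO, and the log2 fold change was 0.20 (95% interval -0.32 to 0.71, edgeR FDR 0.606).

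Dgkq, on chromosome 5 from 108646693 to 108669672 (minus strand), encodes DGK theta. It had 19.8, 24.0 and 21.7 CPM in the WT libraries and 19.4, 18.3 and 19.6 CPM in the Ocln-KO libraries. The groups did not overlap, but by a small margin, and the log2 fold change was -0.19 (95% interval -0.45 to 0.07, edgeR FDR 0.298). Its value is uncertain, since 2090 of its 7189 exonic bases are shared with Tmem175 and 124 with Idua on the opposite strand, and the strand setting of the counting is not given in the sources used here. Tmem175 itself was at 26.0 ± 1.32 CPM (WT) and 25.8 ± 2.67 CPM (Ocln-KO; SD, n = 3 each).

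**Figure D2:**
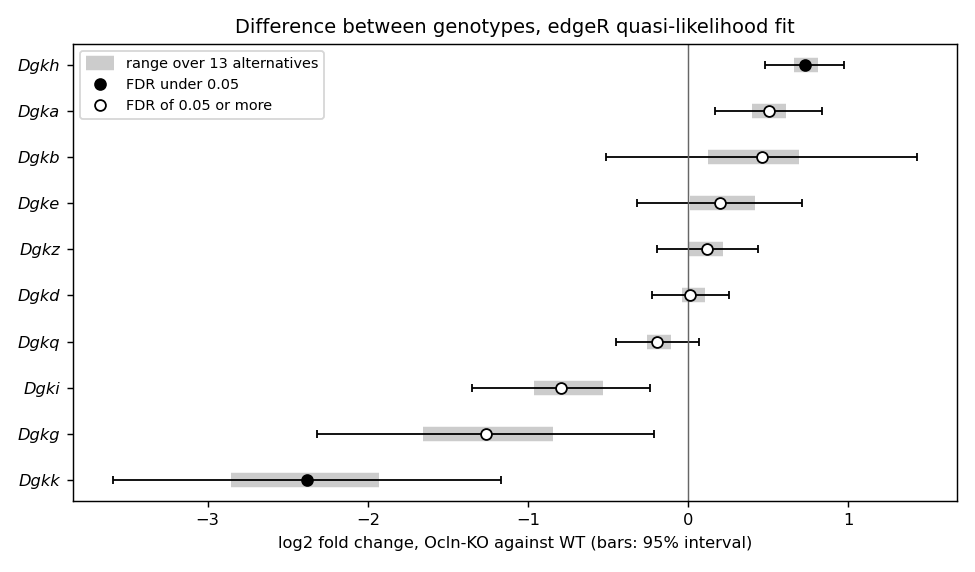
Log2 fold change of each DGK gene, Ocln-KO against WT, from edgeR's quasi-likelihood fit (points, filled at an FDR under 0.05), with its 95% interval (black bars) and the range over 13 other settings (grey). Dgkh at 0.73 and Dgkk at -2.38 are the filled points, and the grey ranges of Dgkd and Dgkz reach both sides of 0.

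To compare members with each other, CPM were divided by the length of all annotated exons of each gene. In WT the order by mean CPM per kilobase was Dgki (23.2 ± 0.667, SD, n = 3), Dgkd (13.8 ± 1.48), Dgkk (8.07 ± 1.67), Dgkz (4.56), Dgkg (3.12), Dgkq (3.04), Dgka (2.82), Dgke (2.48), Dgkh (2.23) and Dgkb (0.0953). The neighbours from Dgkg to Dgkh overlapped pair by pair in this order, and the others did not. By this length Dgki, Dgkd and Dgkk were thus the main DGK transcripts of the WT epididymis, and Dgkb was the scarcest per length as well.

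In Ocln-KO the order was Dgkd (14.0 ± 0.926 CPM per kilobase), Dgki (13.4 ± 4.65), Dgkz (4.95), Dgka (3.99), Dgkh (3.69), Dgke (2.84), Dgkq (2.66), Dgkk (1.55), Dgkg (1.30) and Dgkb (0.131). Here Dgkd and Dgki overlapped, as did the neighbours from Dgkz to Dgkq and the pair Dgkk and Dgkg. Dgkk moved from the third to the eighth place of the level and Dgkh from the ninth to the fifth. Summed over the 10 genes, the level was 63.4 ± 2.32 CPM per kilobase in WT and 48.5 ± 4.28 in Ocln-KO (SD, n = 3 each).

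The composition of this sum differed too. Dgki made up 36.5% of the summed level in WT and 27.6% in Ocln-KO, and Dgkk 12.7% and 3.20%. The Dgki share was 31.1%, 32.3% and 18.2% in Ocln-KO replicates 1, 2 and 3. Shares also rose because the sum was lower: Dgkd, whose level hardly differed, made up 21.8% and 28.8%. Dgkh made up 3.51% and 7.61%, and Dgka 4.45% and 8.24%. With the longest transcript as the length, Dgkg came before Dgkz and Dgka before Dgkq in WT. In Ocln-KO Dgki then came before Dgkd and Dgkq before Dgke, Dgkg took the seventh place and Dgkk the ninth. The levels of Dgkg, Dgka, Dgkb and Dgkz were then over 1.5 times as high, in WT at 7.36, 4.74, 0.170 and 6.86 CPM per kilobase. By that length Dgkk, at 8.74, 6.18 and 9.31 in the WT libraries, overlapped Dgkg (6.43, 7.09 and 8.57) and Dgkz (6.33, 7.80 and 6.44).

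**Figure D3:**
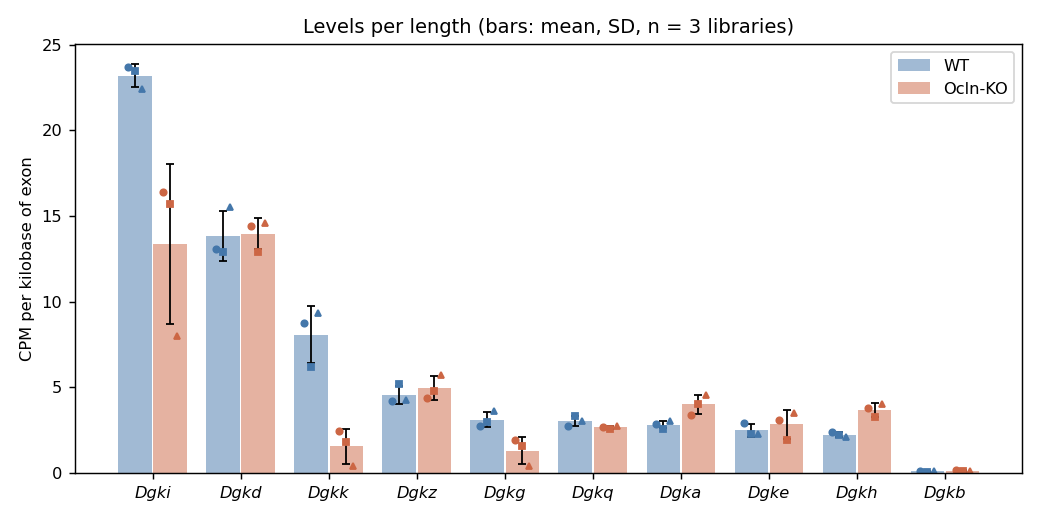
Level of each DGK gene in CPM per kilobase of exon in WT (blue) and Ocln-KO (orange), ordered by the WT mean, with bars at the mean, error bars of 1 SD and a symbol for each of 3 libraries. Dgki led in WT at 23.2 and overlapped with Dgkd in Ocln-KO, at 13.4 and 14.0, and Dgkk went from 8.07 to 1.55.

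Ratios of 2 members within a library do not depend on the scaling between libraries. The log2 ratio of Dgkh to Dgkd counts was -1.15, -1.25 and -1.57 in WT and -0.61, -0.68 and -0.55 in Ocln-KO. Both transcripts encode type II enzymes with the same domains, and the mean of their ratio differed by 0.71 on the log2 scale between the genotypes. The log2 ratio of Dgkk to Dgkh was 0.63, 0.25 and 0.89 in WT and -1.90, -2.09 and -4.51 in Ocln-KO, so the more counted of these genes changed from Dgkk to Dgkh in all libraries. The log2 ratio of Dgka to Dgkg, both of type I, was -0.89, -1.17 and -1.22 in WT and -0.14, 0.43 and 2.47 in Ocln-KO. The log2 ratio of Dgkz to Dgki, both of type IV, was -2.49, -2.17 and -2.38 in WT and -1.91, -1.71 and -0.48 in Ocln-KO. The pairs were chosen with the values of the members known, and a ratio of members that moved apart had to differ, so the ratios are a description without a test. The last 3 were most extreme in Ocln-KO replicate 3.

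The other genes that make, use or respond to diacylglycerol were described in the same fit. Of 72 listed genes 69 were tested, 2 rose and 7 fell, against 8.95% of all tested genes called, and their median log2 fold change was 0.01. An unadjusted p under 0.05 was found for 27 of the 69, against 29.1% of all tested genes. Without WT replicate 1, 2 or 3 no pathway gene rose and 1, 2 and 1 fell in edgeR. There 22, 25 and 17 pathway genes had an unadjusted p under 0.05, but the share of all tested genes was not counted. Without Ocln-KO replicate 1 the fit called 1 higher and 6 lower, and without Ocln-KO replicate 2 it called 1 higher and 4 lower.

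Phospholipases C release diacylglycerol from phosphoinositides, and of 13 genes Plcd1 rose and Plch2 fell. Plch2, which encodes phospholipase C eta 2, had 20.1, 19.7 and 24.8 CPM in the WT libraries and 7.41, 5.90 and 7.36 CPM in the Ocln-KO libraries, a log2 fold change of -1.64 (SE 0.16, edgeR FDR 0.00614). It was the only called pathway gene that also passed the fold change threshold of 2. Its FDR stayed under 0.05 in all 13 alternatives. Plcd1, which encodes phospholipase C delta 1, had 9.59, 8.40 and 7.94 CPM in the WT libraries and 14.7, 16.2 and 18.2 CPM in the Ocln-KO libraries (log2 fold change 0.92, edgeR FDR 0.0195). Plcd1, Plpp2, Cdipt and Agpat2 each kept their call in 9 of 13 alternatives.

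Among the proteins that respond to diacylglycerol, 16 of 19 tested genes had a positive log2 fold change, with a median of 0.28, but 1 rose and 1 fell at the threshold. Over all tested genes 10018 of 19691 had a positive value, with a median of 0.01, and 3.91% were called higher and 5.04% lower. Prkd3, encoding protein kinase D3, rose from 37.5 ± 2.76 to 50.1 ± 2.07 CPM (SD, n = 3 for each), or by 0.42 on the log2 scale (edgeR FDR 0.0357). It kept its call in 6 of 13 alternatives and lost it without any 1 library, where the edgeR FDR was 0.0554 to 0.134. Prkcd, encoding protein kinase C delta, fell from 146.7 ± 16.3 to 98.3 ± 5.89 CPM (SD, n = 3 for each), or by 0.58 on the log2 scale (edgeR FDR 0.0235), and kept its call in 8 of 13 alternatives.

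The phosphatidylinositol resynthesis list held enzymes that make this lipid from phosphatidic acid, transfer proteins, and kinases that phosphorylate it further. Of its 12 genes 3 fell and 10 had a negative log2 fold change, with a median of -0.17. Over all tested genes 5.04% were called lower and 9673 of 19691 had a negative value. Cdipt, which encodes phosphatidylinositol synthase, fell from 84.4 ± 3.23 to 58.2 ± 1.69 CPM (SD, n = 3 for each), or by 0.54 on the log2 scale (edgeR FDR 0.0154). The lipid kinase genes Pi4ka and Pip5k1b fell by 0.32 and 0.59 on the log2 scale (edgeR FDR 0.0473 and 0.0465). These calls were close to the threshold, and Pi4ka kept its call in 3 of 13 alternatives and Pip5k1b in 6.

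Phosphatidic acid also comes from acylation of lysophosphatidic acid, and Agpat2, which encodes an enzyme of that step, fell from 36.6 ± 1.49 to 20.8 ± 2.62 CPM (SD, n = 3 each; log2 fold change -0.82, edgeR FDR 0.0137). It was the only one of 7 other producers to pass. Of 6 phosphatidic acid phosphatases, which return phosphatidic acid to diacylglycerol, Plpp2 fell (log2 fold change -0.67, edgeR FDR 0.0290). Among 7 other users of diacylglycerol none passed at the adjusted threshold with edgeR, while 2 did at an unadjusted p under 0.05 and 1 fell with DESeq2 and with limma-voom. The smallest p was that of Dgat2, an enzyme of triglyceride synthesis, with 55.4, 53.8 and 72.0 CPM for WT and 35.6, 30.3 and 14.1 CPM for Ocln-KO (log2 fold change -1.18, edgeR FDR 0.0526). Among 5 related lipid kinases none passed with edgeR or limma-voom and 1 fell with DESeq2, and 2 had an unadjusted p under 0.05 in edgeR. The smallest p was that of Cerkl (log2 fold change 1.60, edgeR FDR 0.0929). This gene was scarce, with 19, 11 and 7 counts in WT and 40, 40 and 21 counts in Ocln-KO. The other of the 2 genes went down, with a log2 fold change of -0.68 (edgeR FDR 0.0971).

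**Figure D4:**
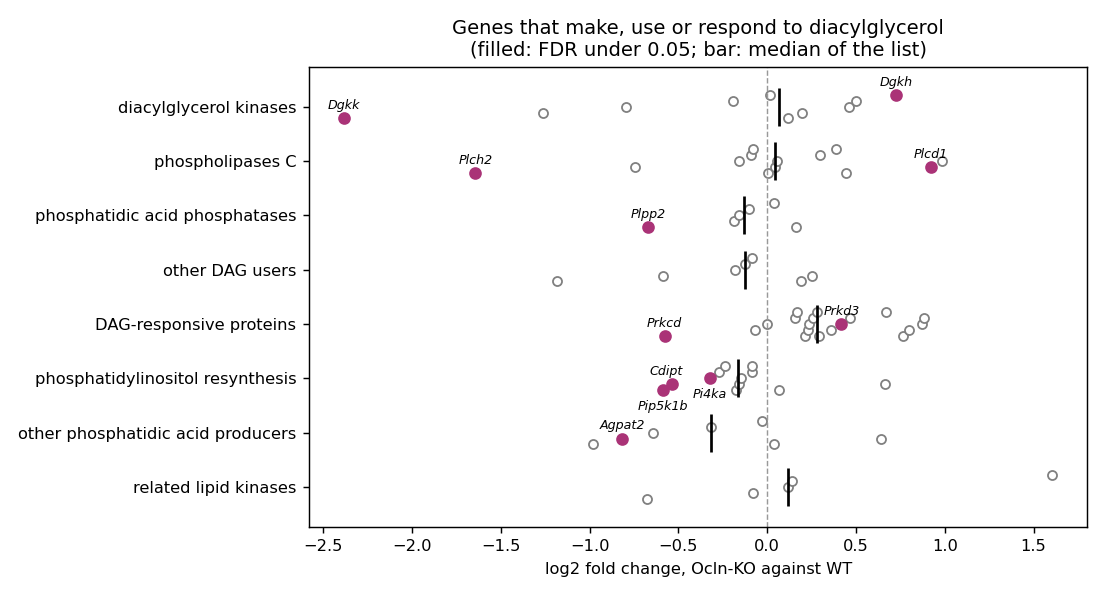
Log2 fold changes, Ocln-KO against WT, of the DGK genes and of 7 lists of genes that make, use or respond to diacylglycerol (DAG), with filled named points at an FDR under 0.05 and a black bar at the median of each list. Filled points lie on both sides of 0 for the DGK genes, the phospholipases C and the DAG-responsive proteins, and phosphatidylinositol resynthesis holds 3 filled points, all below 0.

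Markers of several cell types differed between the genotypes beside these values. Of the clear cell markers 4 of 5 fell, and their summed level was 84.5 to 106 CPM for WT and 42.1 to 52.8 CPM for Ocln-KO, a direction shared by Dgkk, Dgkg and Dgki. Among the Ocln-KO libraries replicate 3 had the lowest Dgkk, Dgkg and Dgki. Of the clear cell markers Foxi1 was the highest there, at 24.0 against 15.7 and 17.8 CPM, as was Atp6v0d2, while Atp6v0a4 was the lowest, at 4.82 against 7.54 and 7.71 CPM, and the other two lay between. In the same library the sperm markers summed to 101 CPM, against 425 and 440 CPM in the other Ocln-KO libraries and 311 to 395 CPM in WT. Of 7 tested principal cell markers 1 fell, and their sums overlapped between the genotypes. The 4 adipocyte markers summed to 2.53 to 4.45 CPM in WT and to 1.99, 0.470 and 0.0591 CPM in Ocln-KO, with none called by edgeR, DESeq2 or limma-voom and 2 at an unadjusted p under 0.05 in edgeR. None of the 8 sperm markers was called or had an unadjusted p under 0.05 with any of these tools.

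The direction of Dgkh and Dgka was shared by other lists. Smooth muscle markers, of which 2 of 6 rose, summed to 1182 to 1428 CPM for WT and 1615 to 2185 CPM for Ocln-KO. T cell markers summed to 3.61 to 4.95 and 7.32 to 10.5 CPM, with 7 of 7 tested genes positive. Macrophage markers summed to 194 to 229 and 242 to 432 CPM, with 8 of 8 positive. None was called in edgeR or limma-voom and 4 rose with DESeq2, with 7 at an unadjusted p under 0.05 in edgeR. Endothelial markers overlapped, at 66.3 to 80.9 and 69.0 to 84.4 CPM, with none called by the 3 tools and 1 at an unadjusted p under 0.05 in edgeR. Of 5 tested neuronal markers none was called by edgeR or limma-voom and 1 fell with DESeq2, with 1 at an unadjusted p under 0.05. Basal cell markers, of which 1 of 4 rose, summed to 205 to 210 and 210 to 251 CPM. Of these, 3 had a positive log2 fold change, while that of Itga6 was -0.21 (edgeR FDR 0.272). No listed marker but Neurod6 was at 0 in all libraries. The part of these cell types in the DGK results was not tested.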

How the data were processed

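RNA-seq reads of whole epididymis came from strand-specific, rRNA-depleted libraries, and the authors mapped them to GRCm38 with HISAT2 2.0.4 and counted them per gene with HTSeq. The deposited values are raw counts per gene and library, without normalization, and the counting mode and strand setting are not given in the sources used here. The software was edgeR 4.0.16, limma 3.58.1 and DESeq2 1.42.0 under R 4.3.3. The edgeR filter filterByExpr, given the genotypes, passed 19691 of 32046 genes with a count. After TMM scaling, a quasi-likelihood model (glmQLFit) was fitted, glmQLFTest compared the genotypes, and p-values of all tested genes were adjusted together (Benjamini-Hochberg). A gene was called at an FDR under 0.05. Each SE was obtained from the log2 fold change and its F statistic, and p-values measure the spread between these libraries only. Coordinates and exon lengths come from GENCODE M21.

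The members and all gene lists were chosen with earlier results of these data known. Named genes were the 10 members, Ocln, every called pathway gene and, in a list without one, the gene with the smallest p; for each called member, the 3 genes with the most similar pattern were added. Counts were simulated for this comparison with 200 of 19691 genes changed 4-fold, and the scarcest genes were left out of the change. There edgeR recovered 88.0% and called 18 unchanged genes, limma-voom recovered 87.0% and called 16, and DESeq2 recovered 90.5% and called 65. Smaller changes, such as that of Dgkh, were not simulated, so these shares do not hold for them. Alternatives were other tests (DESeq2, limma-voom), other scaling (RLE, library totals), other filters (none, or a minimum of 10 counts per library), the replicate number as a block, the omission of single libraries, and for levels the longest transcript. No 2 libraries of the same genotype agreed within counting noise. The proteomes and lipid measurements of the study are not analysed here. Results for some single genes of the lists are not reported here.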

Additional observations from a re-analysis of the deposited data

How the results depend on the processing

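Of 130 log2 fold changes of the 10 members over 13 alternatives, 5 changed sign, all of Dgkd and Dgkz and all close to 0: leaving out each library in turn gave -0.0367 to 0.108 for Dgkd and -0.000417 to 0.219 for Dgkz. With DESeq2, 2 members were called higher and 2 lower (Dgka and Dgkh, Dgki and Dgkk), and 6 and 11 pathway genes. With total counts only, 2 members and 4 pathway genes were called higher, and with no filter on low counts 2 members were called lower. The fit with the replicate block called 0 members higher and 0 lower (adjusted p of 0.0711 for Dgkh and 0.0953 for Dgkk in edgeR, with 5 members at an unadjusted p under 0.05), and 0 and 1 pathway genes. Leaving out each library in turn gave 0 to 2 members higher and 0 to 3 lower, and 0 to 2 pathway genes higher and 1 to 6 lower. At an unadjusted p under 0.05 in edgeR there were 5, 5 and 4 members without WT replicate 1, 2 and 3. The share of all tested genes at that level was 29.1% with all libraries. It was not counted for these fits or the block fit. Without any 1 WT library no member was called by edgeR. The number of all genes called moved in the same way: 1762 with all libraries, 3312 with DESeq2, 41 with the replicate block, 23, 230 and 56 without WT replicate 1, 2 and 3, and 562 without Ocln-KO replicate 2. The cause was not tested. Libraries of the same number did not deviate together (correlations of -0.06, -0.02 and -0.04). WT and Ocln-KO libraries did not correlate best with their own number. With 3 libraries per genotype, each set against its genotype mean, these correlations cannot decide whether same-numbered libraries were paired. The methods speak of pairs and the labels do not say what a number marks, so the block is given as an alternative. Among the members Dgkb had the fewest counts, 25 to 68 per library.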

Other observations

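Of the 4 members with lower values in Ocln-KO, Dgkg, Dgki and Dgkk followed each other closely over the 6 libraries. Pearson's correlation of log2 CPM was 0.98 between Dgkg and Dgki, 0.98 between Dgkk and Dgki and 0.97 between Dgkg and Dgkk, but Dgkq had only 0.49 with Dgkg, 0.49 with Dgki and 0.52 with Dgkk. It was 0.84 between Dgka and Dgkh. It was -0.91 between Dgka and Dgki and -0.90 between Dgkh and Dgkk. These values describe 6 libraries that differ by genotype and by the distance of Ocln-KO replicate 3, so they hold both, and no test was made of them.

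The genes whose pattern was most like that of Dgkh were Fam49b (r = 0.998), Gm13238 (0.998) and Kcnh3 (0.997), which encodes a potassium channel. Those most like Dgkk were Arpc1a (0.999), a subunit gene of the Arp complex that nucleates actin, Gm42144 (0.998) and Npy2r (0.998), which encodes a neuropeptide Y receptor. Such values were common: of 19690 other genes, 332 had a correlation over 0.95 with Dgkh and 637 with Dgkk.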
